A study of Mus musculus with 5 samples.

Results

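Of the 21833 protein-coding genes in the deposited table, 72 were classical axon guidance ligands and receptors, taken by a rule on gene names. They covered semaphorins of classes 3 to 7, plexins, neuropilins, ephrins and Eph receptors. They also covered netrins and G netrins, the netrin receptors Dcc, Neo1 and Unc5, Slits and Robos. The naming rule uses no measured value, but the group was chosen with earlier results of these data known. Reads were found for 64 of the 72 in at least 1 library, and 51 had enough reads to test. In PRC1 i2KO cells 14 of the 51 were higher and 12 were lower than in Control cells at an adjusted p under 0.05, beside 33.9% of all tested genes (18.8% higher and 15.1% lower). The neuropilin gene Nrp2, the receptor kinase gene Ephb2 and the class 6 semaphorin genes Sema6d and Sema6a were among those that rose. The plexin gene Plxna2 and the netrin receptor gene Unc5c were among those that fell. Ephb2, Sema6d and Unc5c met the filter on low counts through the libraries of a single group, so a difference was built into their being tested.

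Axon guidance cues are secreted or membrane-bound proteins that steer growing axons, and epithelia use many of them in cell adhesion, migration and boundary formation. Semaphorins signal through plexins, and most class 3 semaphorins need a neuropilin as co-receptor. Ephrins are themselves held in the membrane and signal to Eph receptor kinases on the neighbouring cell. Netrins act through Dcc, its relative neogenin (Neo1) and the Unc5 receptors, and Slits act through Robos.

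The cells were hair follicle stem cells from the back skin of mice at postnatal day 75, and the sort took CD34-positive cells with high α6 integrin that carried EpCAM but not Sca1. PRC1 is the Polycomb complex that ubiquitinates histone H2A, and Ring1a (gene Ring1) and Ring1b (gene Rnf2) are its catalytic subunits. The 3 PRC1 i2KO libraries came from Ring1a-/-, Ring1bflox/flox mice with K15-CrePR1, in which a keratin 15 promoter drives a Cre that RU-486 switches on. The 2 Control libraries came from Ring1a-/-, Ring1bflox/flox mice without the Cre. Both groups therefore lacked Ring1a, and both were given topical RU-486 (1%) every day for 10 days, starting on day 50, with skin taken 15 days after the last dose. Presence of the Cre and loss of Ring1b cannot be told apart in these groups. Because the labels do not say whether the libraries came from separate animals, each p-value reflects only the spread among these libraries, and that spread may be technical.

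Library sizes were 9675996, 21102727 and 18657555 estimated reads in PRC1 i2KO 1, 2 and 3, against 8270419 and 32463173 in Control 1 and 3. Read levels are given as CPM, counts scaled to library size. Rnf2 had 48.1, 46.6 and 50.2 CPM in PRC1 i2KO 1, 2 and 3, against 67.9 and 57.7 CPM in Control 1 and 3 (log2 fold change -0.37, SE 0.12, edgeR adjusted p = 0.0363), and Ring1 kept reads in all 5 libraries. The part of either gene that is deleted is not given in the sources used here, so those reads do not check the genotype. Cd34, a marker of the bulge and of the sort, had 11.0, 12.3 and 37.2 CPM in PRC1 i2KO 1, 2 and 3, against 1548 and 1697 CPM in Control 1 and 3. Of the 4 genes of the sort gate, Cd34 among them, 1 was higher, 1 was lower and 2 did not pass. RNA levels do not measure the surface proteins used in the sort. Bulge markers summed to 15250 to 20960 CPM in PRC1 i2KO and 44260 to 44520 CPM in Control, with 14 of 19 tested lower. Markers of the upper follicle summed to 9053 to 9135 CPM in PRC1 i2KO and 751.3 to 1121 CPM in Control, with 9 of 10 higher, and sebaceous markers were higher in 13 of 14 and cycling markers in 18 of 18. Suprabasal epidermal markers were higher in 12 of 14 and summed to 3139 to 4387 CPM in PRC1 i2KO and 1867 to 1934 CPM in Control. These counts stand beside 18.8% of all tested genes higher and 15.1% lower. PRC1 i2KO 3 stood apart within its group: its bulge sum was the highest of the 3 and its cycling sum, 514.3 CPM, was the lowest. The part of these shifts in the guidance results was not tested, and in bulk RNA fewer cells of a type and less RNA per cell cannot be told apart.

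The promoters of 5 members on which the results turn are shown to give their CpG content, since PRC1 is known to occupy CpG-rich promoters. Each sequence is the RefSeq promoter on build GRCm38.p6, from 250 bases before to 50 bases after the transcription start, 5′ to 3′ on the gene's strand, with each CG dinucleotide in capitals. The read counts were made on mm39, so these coordinates place the promoters and not the counts. Nrp2 (ENSMUSG00000025969) at chr1:62703067-62703366, plus strand, held 37 CG dinucleotides. Ephb2 (ENSMUSG00000028664) at chr4:136835963-136836262, minus strand, held 24. Plxna2 (ENSMUSG00000026640) at chr1:194619579-194619878, plus strand, held 25. Unc5c (ENSMUSG00000059921) at chr3:141465314-141465613, plus strand, held 24. Sema3e (ENSMUSG00000063531) at chr5:14025026-14025325, plus strand, held 11 and was the poorest of the 5.
Nrp2: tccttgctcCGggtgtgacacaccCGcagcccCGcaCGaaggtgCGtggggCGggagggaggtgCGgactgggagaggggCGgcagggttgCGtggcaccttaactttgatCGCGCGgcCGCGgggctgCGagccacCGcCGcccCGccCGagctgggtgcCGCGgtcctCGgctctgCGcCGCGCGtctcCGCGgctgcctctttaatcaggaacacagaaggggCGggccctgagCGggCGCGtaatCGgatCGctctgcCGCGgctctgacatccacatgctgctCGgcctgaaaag
Ephb2: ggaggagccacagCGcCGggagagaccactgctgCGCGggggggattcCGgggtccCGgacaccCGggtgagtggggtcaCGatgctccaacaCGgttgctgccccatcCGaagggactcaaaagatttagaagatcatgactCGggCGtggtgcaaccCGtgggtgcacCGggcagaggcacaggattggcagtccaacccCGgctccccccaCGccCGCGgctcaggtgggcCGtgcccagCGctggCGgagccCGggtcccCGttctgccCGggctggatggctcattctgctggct
Plxna2: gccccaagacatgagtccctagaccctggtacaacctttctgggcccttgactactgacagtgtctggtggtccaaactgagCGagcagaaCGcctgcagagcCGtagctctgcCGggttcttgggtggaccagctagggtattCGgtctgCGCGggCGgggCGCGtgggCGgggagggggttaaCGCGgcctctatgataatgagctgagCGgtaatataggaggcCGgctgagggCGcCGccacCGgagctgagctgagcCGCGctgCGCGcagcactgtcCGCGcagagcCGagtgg
Unc5c: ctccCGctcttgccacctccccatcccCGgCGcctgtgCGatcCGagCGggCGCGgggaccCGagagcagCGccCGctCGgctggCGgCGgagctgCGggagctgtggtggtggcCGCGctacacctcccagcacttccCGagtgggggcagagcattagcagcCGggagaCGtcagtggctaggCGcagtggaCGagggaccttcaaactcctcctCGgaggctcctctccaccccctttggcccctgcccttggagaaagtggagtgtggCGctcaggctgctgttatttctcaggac
Sema3e: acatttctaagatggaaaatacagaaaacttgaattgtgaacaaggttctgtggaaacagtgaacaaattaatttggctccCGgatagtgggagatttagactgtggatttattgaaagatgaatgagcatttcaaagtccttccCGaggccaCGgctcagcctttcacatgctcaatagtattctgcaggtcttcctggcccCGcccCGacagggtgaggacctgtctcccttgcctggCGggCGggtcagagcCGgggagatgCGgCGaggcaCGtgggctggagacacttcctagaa

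Promoters of 62 of the 72 genes were found in the RefSeq table, 78 promoters in all. Of these, 45 (57.7%) were CpG-rich, defined as at least 50% G and C with an observed-to-expected CG ratio of at least 0.6, against 33.5% of all 32851 promoters in the table. The CpG-rich share was 13 of 16 promoters (81.2%) of members that rose, 8 of 13 (61.5%) of members that fell, 11 of 28 (39.3%) of members that did not pass and 13 of 21 (61.9%) of members not tested. The letters GGGCGG, searched on both strands, were in 70.5% of member promoters and 35.7% of all. The letters TATAAA were in 2.56% of member promoters and 13.6% of all, and CTTTGAT in 1.28% and 3.73%. The single member promoter with CTTTGAT was that of Nrp2. These shares describe the letters in a window of 300 bases, and several promoters can belong to 1 gene. The 28 promoters of members that did not pass came from 19 genes, and Sema4a, Sema4d and Robo2 each gave several CpG-poor ones. Shares for all genes that rose, fell or did not pass were not computed, so the differences by call are not read as a trait of the members. The promoters of the whole table came from 27025 genes, with no filter on gene type or expression, while every member is protein-coding. The differences from all promoters are likewise not read as a trait of the members.

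Counted together, 26 of the 51 tested members passed an adjusted p of 0.05 in edgeR's quasi-likelihood test (51.0%), and 25 did not. In the same fit 5310 of all 15665 tested genes passed, so change was frequent in the whole transcriptome. Without Control 3 the count over all genes was 3322, while the count of members was 24. On log2(TPM + 1) with limma, 1696 genes were higher and 2054 lower, against 2939 and 2371 in the count fit. At 2-fold or more, 16 members passed (31.4%), 8 higher and 8 lower, against 17.3% of all genes (10.8% higher and 6.49% lower). The libraries of the groups did not overlap for 31 members, 19 higher and 12 lower, a count to be read beside 59.5% of all genes (30% higher and 29.4% lower). The median log2 fold change of PRC1 i2KO over Control was 0.10 over the members and -0.01 over all genes, and the median absolute value was 0.77 and 0.48. At a mean of at least 1 CPM, 26 of 49 members (53.1%) passed against 36.9% of all genes. The filter on low counts asked for enough reads in 2 libraries. Ephb2, Sema6d, Plxnc1 and Slit1 met it through their PRC1 i2KO libraries alone and Unc5c through its Control libraries alone, so a difference was built into their being tested. Of the other 46 members, 23 passed, and the share of all genes that met the filter through both groups was not computed. The counts of 26 and 16 above include Ephb2, Sema6d and Unc5c.

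**Figure D1:**
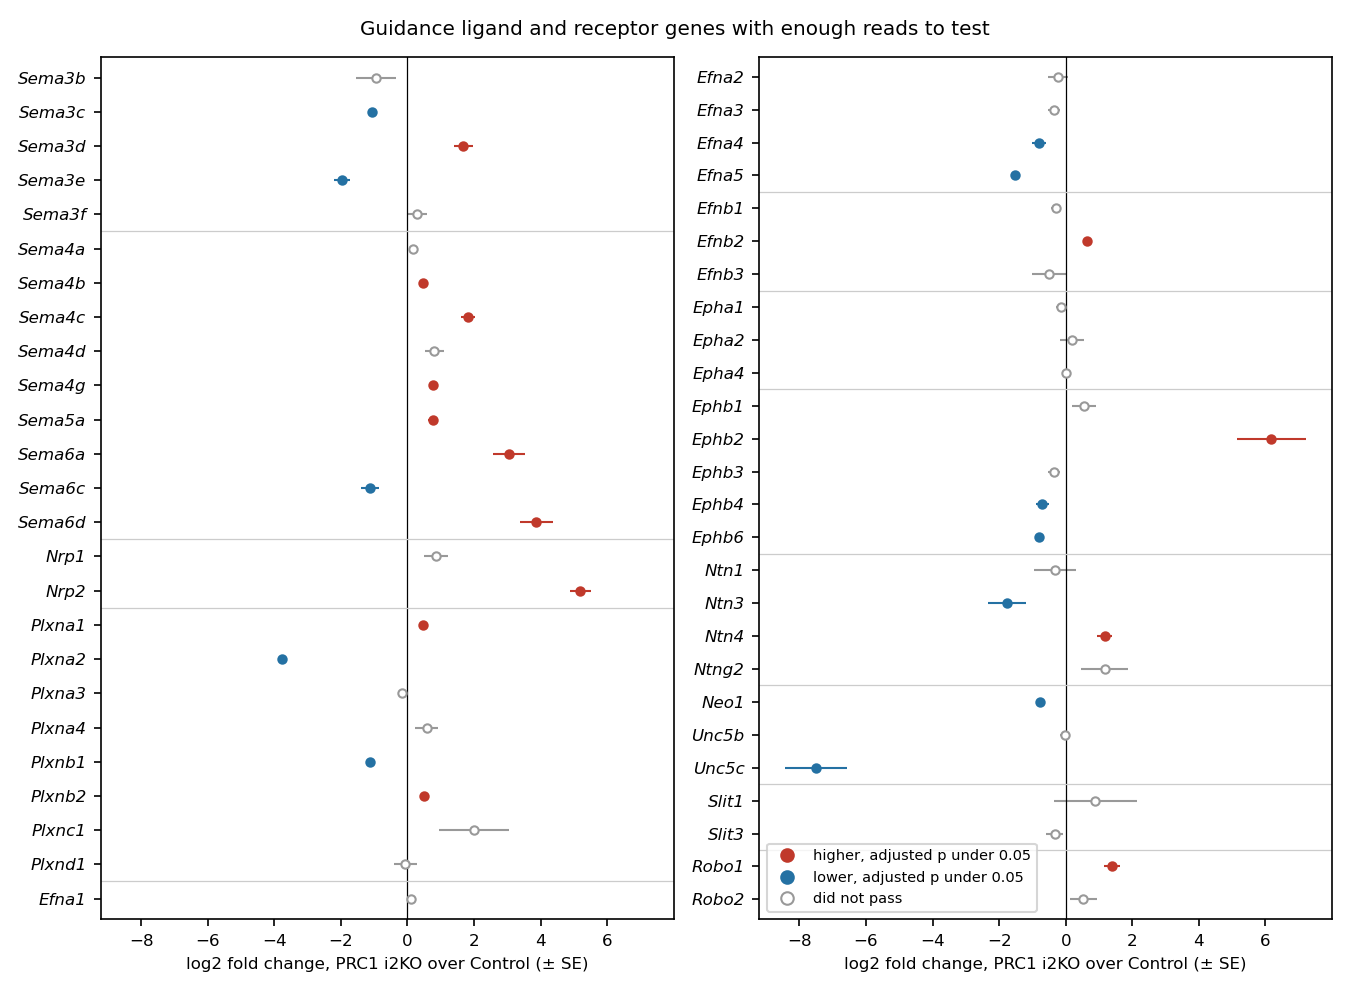
Log2 fold change of PRC1 i2KO over Control (x axis) for the 51 tested members (y axis, in order of family, families parted by grey lines), with the standard error as a bar. Filled red points are the 14 members that were higher and filled blue points the 12 that were lower at an adjusted p under 0.05, open grey points the 25 that did not pass; Ephb2 lies farthest to the right and Unc5c farthest to the left.

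Among the secreted class 3 semaphorins, Sema3e and Sema3c fell and Sema3d rose. Sema3e, which binds plexin-D1 without a neuropilin, had 87.2, 106 and 139 CPM in PRC1 i2KO 1, 2 and 3, against 514 and 357 CPM in Control 1 and 3. All 3 PRC1 i2KO libraries lay under both Control libraries, and PRC1 i2KO 3 was the closest to them (log2 fold change -1.97, SE 0.23, edgeR adjusted p = 0.00128). Sema3c, which signals through neuropilins and plexins, had 126, 130.3 and 104 CPM in PRC1 i2KO 1, 2 and 3, against 262 and 235 CPM in Control 1 and 3, again without overlap (log2 fold change -1.05, SE 0.12, edgeR adjusted p = 0.000153). Sema3d, a cue for endothelial and cardiac cells, was low and had 10.1, 11.7 and 13.1 CPM in PRC1 i2KO 1, 2 and 3, against 3.57 and 3.64 CPM in Control 1 and 3. Every PRC1 i2KO library of Sema3d was above both Control libraries (log2 fold change 1.69, SE 0.28, edgeR adjusted p = 0.00134).

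Sema3f, which prefers neuropilin-2, had 36.5, 28.5 and 34.4 CPM in PRC1 i2KO 1, 2 and 3, against 16.9 and 36.0 CPM in Control 1 and 3, and Control 3 lay within the PRC1 i2KO range (log2 fold change 0.29, edgeR adjusted p = 0.519). Its direction turned on single Control libraries, since the log2 fold change was -0.13 without Control 1 and 0.97, with an adjusted p of 0.0171, without Control 3. Sema3b did not pass (log2 fold change -0.96, adjusted p = 0.259). Sema3a, the neuropilin-1 ligand, had 0, 4 and 16 reads in PRC1 i2KO 1, 2 and 3 and none in either Control library, and Sema3g had 2 reads in all. Neither could be tested.

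Of 9 tested membrane-bound semaphorins of classes 4 to 7, 6 were higher and 1 lower, beside 18.8% and 15.1% of all tested genes. Of the 6, Sema4b and Sema5a did not pass in any of 3 limma fits on TPM. The largest values belonged to class 6, whose members are transmembrane ligands of A plexins. Sema6d, a ligand of plexin-A1, had 12.2, 16.5 and 7.11 CPM in PRC1 i2KO 1, 2 and 3, against 0.492 and 0.964 CPM in Control 1 and 3. Both Control libraries were under 1 CPM and every PRC1 i2KO library was above 7 CPM (log2 fold change 3.87, SE 0.49, edgeR adjusted p = 0.000279), and the gene met the filter on low counts through PRC1 i2KO alone. Sema6a, a ligand of plexin-A2 and plexin-A4, had 42.2, 44.5 and 30.6 CPM in PRC1 i2KO 1, 2 and 3, against 8.00 and 2.71 CPM in Control 1 and 3. The groups did not overlap (log2 fold change 3.05, SE 0.48, edgeR adjusted p = 0.00512), but the Control libraries differed, and the log2 fold change was 3.85 without Control 1 and 2.29 without Control 3. Sema6c went the other way, with 15.2, 12.3 and 24.6 CPM in PRC1 i2KO 1, 2 and 3, against 37.2 and 38.6 CPM in Control 1 and 3. PRC1 i2KO 3 was its closest library to Control (log2 fold change -1.12, SE 0.27, edgeR adjusted p = 0.0138), and the call was lost without Control 1, Control 3 or PRC1 i2KO 1 (adjusted p of 0.0527, 0.0754 and 0.0523).

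Class 4 semaphorins are transmembrane ligands, several of them for B plexins. Sema4c, a ligand of plexin-B2, had 57.6, 44.9 and 36.9 CPM in PRC1 i2KO 1, 2 and 3, against 14.4 and 12.04 CPM in Control 1 and 3. Each PRC1 i2KO library was well above both Control libraries (log2 fold change 1.82, SE 0.21, edgeR adjusted p = 0.000169). Sema4a, known from immune cells and the retina, was the class 4 to 7 semaphorin with the highest level per transcript length, and it had 89.9, 95.1 and 85.8 CPM in PRC1 i2KO 1, 2 and 3, against 85.2 and 74.4 CPM in Control 1 and 3. Its libraries did not overlap, yet the difference missed the threshold (log2 fold change 0.18, adjusted p = 0.231). Smaller rises that passed were those of Sema4g (log2 fold change 0.78), Sema5a (0.77) and Sema4b (0.47). Sema4b lost its call without Control 1 (adjusted p = 0.173) or without PRC1 i2KO 2 (adjusted p = 0.0928). Sema4d, the main ligand of plexin-B1, had a log2 fold change of 0.81 that missed the threshold (adjusted p = 0.0608). Sema5b had no read. Sema4f had 12 reads in PRC1 i2KO and 1 in Control, Sema6b 9 and 0, and Sema7a 14 and 2.

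Nrp2 showed the largest rise among members with reads in every library. It encodes neuropilin-2, a co-receptor for class 3 semaphorins and for vascular endothelial growth factors. Nrp2 had 159, 169 and 135 CPM in PRC1 i2KO 1, 2 and 3, against 6.40 and 3.08 CPM in Control 1 and 3. The lowest PRC1 i2KO library was more than an order of magnitude above the highest Control library (log2 fold change 5.20, SE 0.31, edgeR adjusted p = 4.45e-05), and leaving out single libraries gave log2 fold changes of 4.59 to 5.64. Nrp1, the neuropilin of Sema3a, had 5.08, 7.10 and 6.26 CPM in PRC1 i2KO 1, 2 and 3, against 4.31 and 2.71 CPM in Control 1 and 3, without overlap but also without passing (log2 fold change 0.86, adjusted p = 0.0973).

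Nrp2 is also known from endothelium, and the endothelial marker list summed to 19.4 to 23.0 CPM in PRC1 i2KO and 8.18 to 9.48 CPM in Control. Only Flt1 of its 6 tested genes passed, and it was higher, beside 18.8% of all tested genes. It had 13.1, 12.8 and 4.32 CPM in PRC1 i2KO 1, 2 and 3, against 0 and 0 CPM in Control 1 and 3. Flt1 therefore met the filter on low counts through PRC1 i2KO alone, so a difference was built into its being tested. It also gave most of the list's sum in PRC1 i2KO 1 and 2. Pecam1 had 0, 0.564 and 1.74 CPM in PRC1 i2KO 1, 2 and 3, against 0.985 and 0.249 CPM in Control 1 and 3, and Cldn5 had no read in any library. The part of endothelial RNA in the Nrp2 values was not tested.

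Among plexins, the semaphorin receptors, Plxna2 and Plxnb1 fell while Plxna1 and Plxnb2 rose by less. Plxna2, receptor for Sema6a and, with neuropilins, for class 3 semaphorins, had 56.7, 51.0 and 52.0 CPM in PRC1 i2KO 1, 2 and 3, against 659 and 779.6 CPM in Control 1 and 3. The 3 PRC1 i2KO libraries lay within a few CPM of each other and more than an order of magnitude below Control (log2 fold change -3.76, SE 0.12, edgeR adjusted p = 8.41e-08), a 13.5-fold decrease. Plxnb1, receptor for Sema4d, had 308, 303 and 355 CPM in PRC1 i2KO 1, 2 and 3, against 657 and 743 CPM in Control 1 and 3, with no overlap (log2 fold change -1.12, SE 0.11, edgeR adjusted p = 6.65e-05). Plxnb2, receptor for Sema4c, had the highest mean TPM of the plexins over the 5 libraries, though Plxnb1 was higher in Control, and it had 410.2, 431 and 412 CPM in PRC1 i2KO 1, 2 and 3, against 296 and 294 CPM in Control 1 and 3. Its libraries were separate by group (log2 fold change 0.50, SE 0.10, edgeR adjusted p = 0.00315). Plxna1 rose by a similar amount (log2 fold change 0.48, adjusted p = 0.00428). The rises of Plxna1 and Plxnb2 did not pass when TPM values were tested with limma (adjusted p of 0.180 and 0.0538 on log2(TPM + 1)).

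Plxna3 (log2 fold change -0.17), Plxna4 (0.58) and Plxnd1 (-0.06), the receptor for Sema3e, did not pass, and their libraries overlapped. Plxnc1, the Sema7a receptor, was under 2 CPM everywhere and did not pass (log2 fold change 2.00, adjusted p = 0.180). Plxnb3 had no read.

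**Figure D2:**
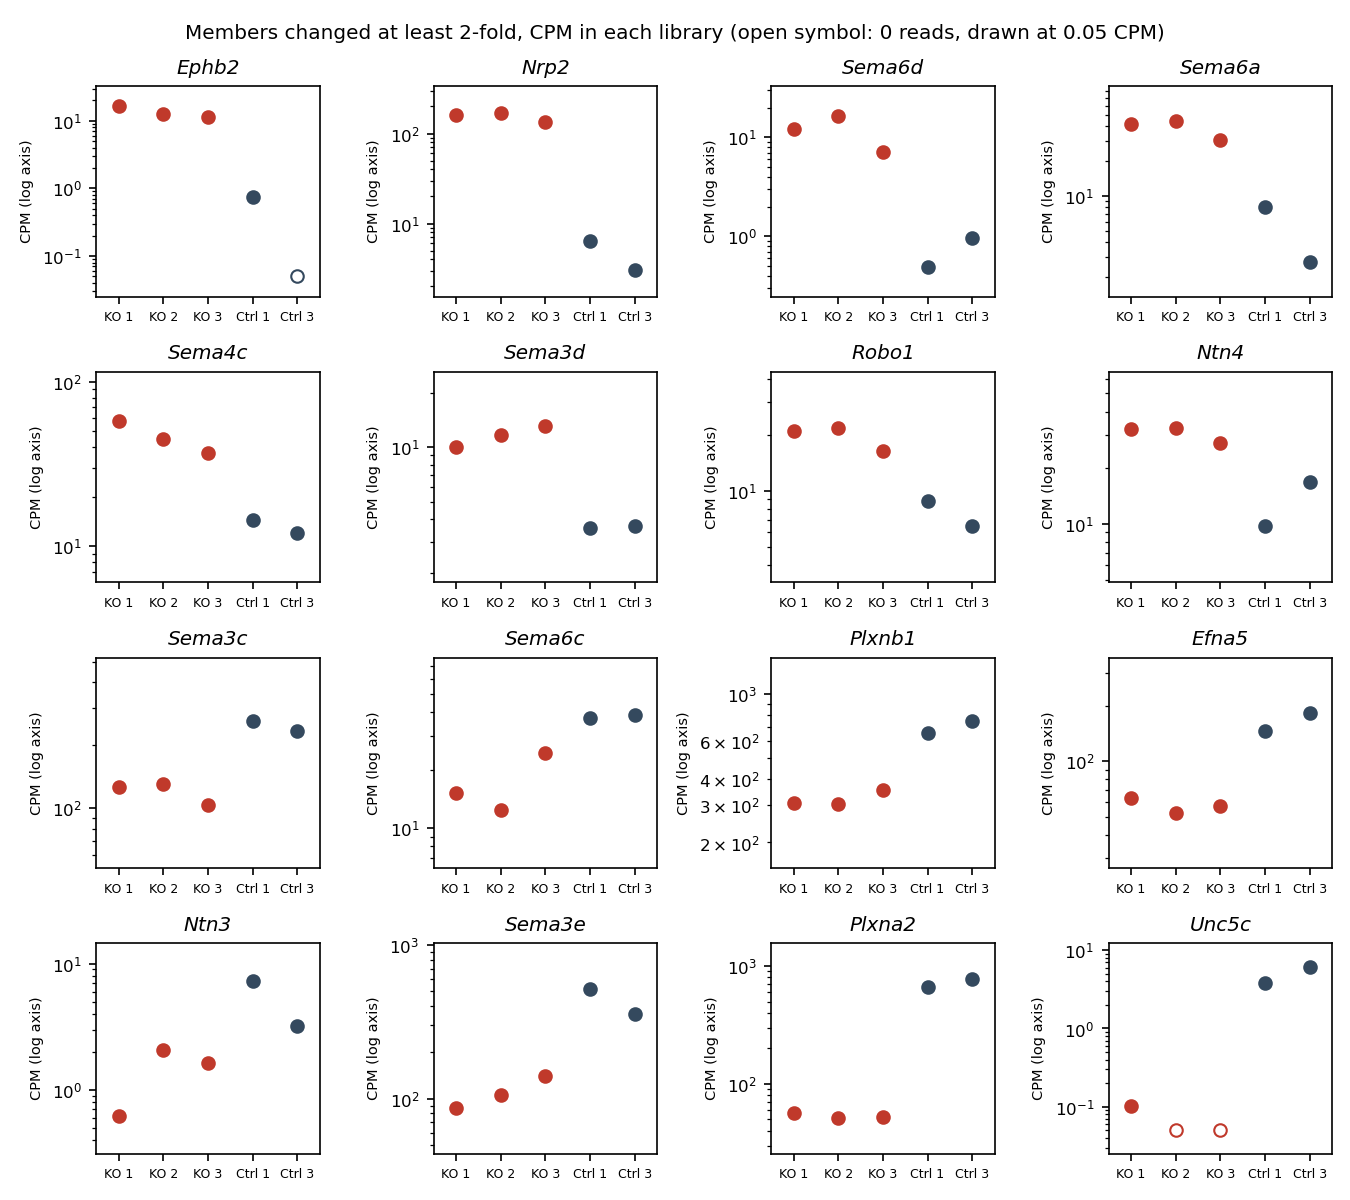
CPM in each library (y axis, log scale, one range per panel) for the 16 members that passed with at least a 2-fold change, ordered from the largest rise to the largest fall; red points are PRC1 i2KO libraries 1, 2 and 3 and dark points Control libraries 1 and 3, and an open symbol marks 0 reads. In no panel do the red and dark points overlap, but the genes were picked by passing the test, which makes overlap unlikely. The groups did not overlap for 59.5% of all tested genes. Plxna2 shows 51.0 to 56.7 CPM in PRC1 i2KO against 659.3 to 779.6 CPM in Control.

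A ephrins are tethered to the membrane by a lipid anchor and bind EphA receptors, and all 5 were tested. Efna5, which also binds Ephb2, had 63.0, 52.8 and 57.2 CPM in PRC1 i2KO 1, 2 and 3, against 145 and 182 CPM in Control 1 and 3. All 3 PRC1 i2KO libraries were below both Control libraries (log2 fold change -1.51, SE 0.13, edgeR adjusted p = 2.11e-05). Efna4 fell less (log2 fold change -0.79, adjusted p = 0.0171), and its call was lost without Control 3, PRC1 i2KO 1 or PRC1 i2KO 2 (adjusted p of 0.233, 0.064 and 0.0696). Efna1, the A ephrin with the highest level per length, had 124, 132 and 138 CPM in PRC1 i2KO 1, 2 and 3, against 135 and 111 CPM in Control 1 and 3, and its libraries overlapped (log2 fold change 0.10, adjusted p = 0.570). Efna3 (log2 fold change -0.35) and Efna2 (-0.22) did not pass, although Efna3 passed when PRC1 i2KO 3 was left out (log2 fold change -0.54, adjusted p = 0.0059).

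B ephrins cross the membrane and bind EphB receptors. Efnb2, the partner of Ephb4 in vessels, had 838, 835 and 844 CPM in PRC1 i2KO 1, 2 and 3, against 559.8 and 524 CPM in Control 1 and 3. The PRC1 i2KO libraries lay close together and all exceeded Control (log2 fold change 0.63, SE 0.10, edgeR adjusted p = 0.00106). Efnb1 overlapped between groups (log2 fold change -0.30) and passed only without PRC1 i2KO 3 (-0.42, adjusted p = 0.0277) or with no filter on low counts. Efnb3 stayed under 5 CPM in every library and did not pass (log2 fold change -0.50).

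Only 3 of the 9 EphA receptor genes could be tested, and the libraries of each overlapped between the groups. Epha2, the EphA receptor with the highest level per length and one known from epidermis, had 245, 229 and 156 CPM in PRC1 i2KO 1, 2 and 3, against 247 and 125 CPM in Control 1 and 3. The 2 Control libraries differed from each other by more than the groups did (log2 fold change 0.18, adjusted p = 0.756). Epha1 (log2 fold change -0.15) and Epha4 (0.01) did not pass either. Epha3, Epha6, Epha8 and Epha10 had no read, Epha5 had 2 reads in PRC1 i2KO and none in Control, and Epha7 had 3 and 9.

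All 5 EphB receptor genes were tested, with Ephb2 higher and Ephb6 and Ephb4 lower. Ephb2, a receptor kinase for B ephrins, had 16.4, 12.7 and 11.4 CPM in PRC1 i2KO 1, 2 and 3, against 0.738 and 0 CPM in Control 1 and 3. In reads this was 158, 270 and 217 in the PRC1 i2KO libraries and 6 and 0 in the Control libraries (log2 fold change 6.18, SE 1.04, edgeR adjusted p = 0.00535). Ephb2 met the filter on low counts through PRC1 i2KO alone. Its fitted value rests on those 6 reads and is no measure of size: it was 4.17 without Control 3 and 11.11 without Control 1, where no Control read remains. Ephb6, which lacks kinase activity and had the highest level per length of the EphB genes, had 255, 258 and 285 CPM in PRC1 i2KO 1, 2 and 3, against 449 and 487 CPM in Control 1 and 3, with no overlap (log2 fold change -0.81, SE 0.10, edgeR adjusted p = 0.000254). Ephb4, the receptor for Efnb2, fell by 0.71 on the log2 scale (adjusted p = 0.0283). It did not pass without Control 3, PRC1 i2KO 1 or PRC1 i2KO 2 (adjusted p of 0.161, 0.0683 and 0.0797). Ephb3 (log2 fold change -0.34) passed only without PRC1 i2KO 3 (-0.55, adjusted p = 0.00317) or with no filter on low counts, and Ephb1 (0.55) did not pass.

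Netrins are laminin-related secreted cues, and their levels were low. Ntn4, a netrin of basement membranes that binds laminins, had 32.1, 32.7 and 27.2 CPM in PRC1 i2KO 1, 2 and 3, against 9.72 and 16.7 CPM in Control 1 and 3. All PRC1 i2KO libraries were higher than both Control libraries (log2 fold change 1.17, SE 0.23, edgeR adjusted p = 0.00361), with log2 fold changes from 0.87 without Control 1 to 1.65 without Control 3. Ntn3 had 0.622, 2.07 and 1.63 CPM in PRC1 i2KO 1, 2 and 3, against 7.26 and 3.20 CPM in Control 1 and 3, with no overlap (log2 fold change -1.78, SE 0.57, edgeR adjusted p = 0.0371). Its call was lost without Control 1 (log2 fold change -1.11, adjusted p = 0.293), without PRC1 i2KO 1 (-1.45, adjusted p = 0.0866) or without PRC1 i2KO 2 (-2.11, adjusted p = 0.0542). Ntn1, the best-known attractant of the family, stayed under 3 CPM and did not pass (log2 fold change -0.33). Ntng2, a lipid-anchored G netrin, did not pass either (log2 fold change 1.18, adjusted p = 0.233). Ntng1 had 15 reads in PRC1 i2KO and 9 in Control, and Ntn5 had 6 and 0.

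On the receptor side, Unc5c and Neo1 fell, and the founding netrin receptor gene Dcc had no read in any library. Unc5c, a receptor for repulsion by netrin, had 0.104, 0 and 0 CPM in PRC1 i2KO 1, 2 and 3, against 3.82 and 6.13 CPM in Control 1 and 3. These levels stand for 1, 0 and 0 reads in the PRC1 i2KO libraries and 31 and 197 reads in the Control libraries (log2 fold change -7.50, SE 0.92, edgeR adjusted p = 0.000231). Unc5c met the filter through Control alone, and its fitted value ranged from -9.66 without PRC1 i2KO 1, which holds the single read, to -6.85 without PRC1 i2KO 2. The ratio of summed reads scaled to depth, PRC1 i2KO over Control, was 0.00354, with an exact 95% binomial interval of 8.92e-05 to 0.0199 that covers counting error only. Neo1, which binds netrins and repulsive guidance molecules, had 135, 124 and 138 CPM in PRC1 i2KO 1, 2 and 3, against 227 and 226 CPM in Control 1 and 3. Both Control libraries lay above all 3 PRC1 i2KO libraries (log2 fold change -0.77, SE 0.10, edgeR adjusted p = 0.000261). Unc5b, known from vessels, had 66.5, 63.2 and 74.8 CPM in PRC1 i2KO 1, 2 and 3, against 59.9 and 77.7 CPM in Control 1 and 3 and overlapped between groups (log2 fold change -0.02). Unc5a had 32 reads in PRC1 i2KO, 26 of them in PRC1 i2KO 3, and 3 in Control, and Unc5d had none and 2.

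Slits are large secreted repellents. Slit3, the Slit with the highest level, had 79.9, 95.3 and 59.2 CPM in PRC1 i2KO 1, 2 and 3, against 77.4 and 118 CPM in Control 1 and 3, and its libraries overlapped (log2 fold change -0.33, edgeR adjusted p = 0.378). Slit1 was near 1 CPM or lower in every library and did not pass, and Slit2 had 16 reads in PRC1 i2KO and 10 in Control. Of the Slit receptors, Robo1 had 21.1, 21.9 and 16.4 CPM in PRC1 i2KO 1, 2 and 3, against 8.86 and 6.44 CPM in Control 1 and 3. Every PRC1 i2KO library of Robo1 was above Control (log2 fold change 1.40, SE 0.24, edgeR adjusted p = 0.00182), though on log2(TPM + 1) with limma it did not pass (adjusted p = 0.122). Robo2, the more abundant receptor, had 38.3, 48.3 and 77.7 CPM in PRC1 i2KO 1, 2 and 3, against 50.3 and 27.6 CPM in Control 1 and 3 and overlapped (log2 fold change 0.53, adjusted p = 0.395). Robo3 had no read, and Robo4 had 7 reads in PRC1 i2KO and none in Control.

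Set side by side by known binding, some ligand and receptor genes moved in different directions and others in the same direction. The pairs named are a selection. Sema6a rose (log2 fold change 3.05) and its receptor gene Plxna2 fell (-3.76). Sema4c (1.82) and Plxnb2 (0.50) both rose, as did Sema6d (3.87) and Plxna1 (0.48). The rises of Plxnb2 and Plxna1 did not pass on TPM with limma. Plxnb1 fell (-1.12) and its ligand gene Sema4d did not pass (0.81). For Sema3f, which did not pass (0.29), the co-receptor gene Nrp2 rose (5.20). Sema3e fell (-1.97) and its receptor gene Plxnd1 did not pass (-0.06). Efnb2 rose (0.63) and Ephb4 fell (-0.71), though Ephb4 lost its call when some single libraries were left out. Among genes for netrin signalling Ntn4 rose (1.17) while Neo1 fell (-0.77). Unc5c fell (-7.50), as did Flrt2, which encodes a ligand of Unc5 receptors. Sema6d and Unc5c met the filter on low counts through the libraries of a single group, so a difference was built into their being tested. Pairing rests on known binding, and RNA levels alone do not measure signalling.

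Levels per transcript length, given in TPM, as a share of each family's sum, show how the makeup of families differed; a share within a family does not depend on library scaling. Values are means ± SD (n = 3 in PRC1 i2KO and n = 2 in Control). Of A plexin TPM, Plxna2 made up 7.06% ± 0.384 in PRC1 i2KO and 52.4% ± 5.67 in Control, and Plxna1 60.9% ± 2.32 in PRC1 i2KO and 25.5% ± 3.74 in Control. The family's summed level was 114 ± 8.06 TPM in PRC1 i2KO and 221 ± 5.66 TPM in Control, so the fall of Plxna2 was not offset in sum. Of B plexin TPM, Plxnb1 held 36.6% ± 2.49 in PRC1 i2KO and 62.8% ± 3.16 in Control, with the sum at 228 ± 11.6 TPM in PRC1 i2KO and 307 ± 13.4 TPM in Control. In both families the plexin with the largest share differed between the groups.

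Nrp2 was 93.3% ± 1.10 in PRC1 i2KO and 41.2% ± 4.48 in Control of neuropilin TPM, whose sum was 41.6 ± 4.35 TPM in PRC1 i2KO and 3.09 ± 1.17 TPM in Control. Among class 3 semaphorins Sema3e accounted for 29.2% ± 6.86 in PRC1 i2KO and 51.2% ± 7.04 in Control, Sema3f for 27.8% ± 3.09 in PRC1 i2KO and 11.1% ± 4.88 in Control, and the sum was 94.2 ± 4.22 TPM in PRC1 i2KO and 230.5 ± 26.4 TPM in Control. Among class 6 semaphorins Sema6a made up 44.8% ± 9.54 in PRC1 i2KO and 8.64% ± 2.67 in Control and Sema6c 40.9% ± 15.2 in PRC1 i2KO and 90.2% ± 2.01 in Control, while the sums overlapped between groups. The share of Sema6c ranged from 23.4% in PRC1 i2KO 2 to 51.2% in PRC1 i2KO 3. Efnb2 was 70.0% ± 2.37 in PRC1 i2KO and 53.0% ± 7.53 in Control of B ephrin TPM.

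Summed TPM was lower in PRC1 i2KO for A ephrins (323 ± 54.8 TPM in PRC1 i2KO and 468 ± 38.2 TPM in Control), EphB receptors (206 ± 27.5 TPM in PRC1 i2KO and 363 ± 23.7 TPM in Control) and netrin receptors (58.5 ± 5.02 TPM in PRC1 i2KO and 99.3 ± 1.82 TPM in Control). It was higher for class 4 semaphorins (199 ± 17.0 TPM in PRC1 i2KO and 148 ± 5.80 TPM in Control) and netrins (17.3 ± 2.38 TPM in PRC1 i2KO and 10.6 ± 1.92 TPM in Control). For EphA receptors, B ephrins, Slits and Robos the sums overlapped between the groups. The sums are descriptions without a test, and on the log2(TPM + 1) scale the median log2 fold change of all genes was -0.137, against -0.01 in the count fit.

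**Figure D3:**
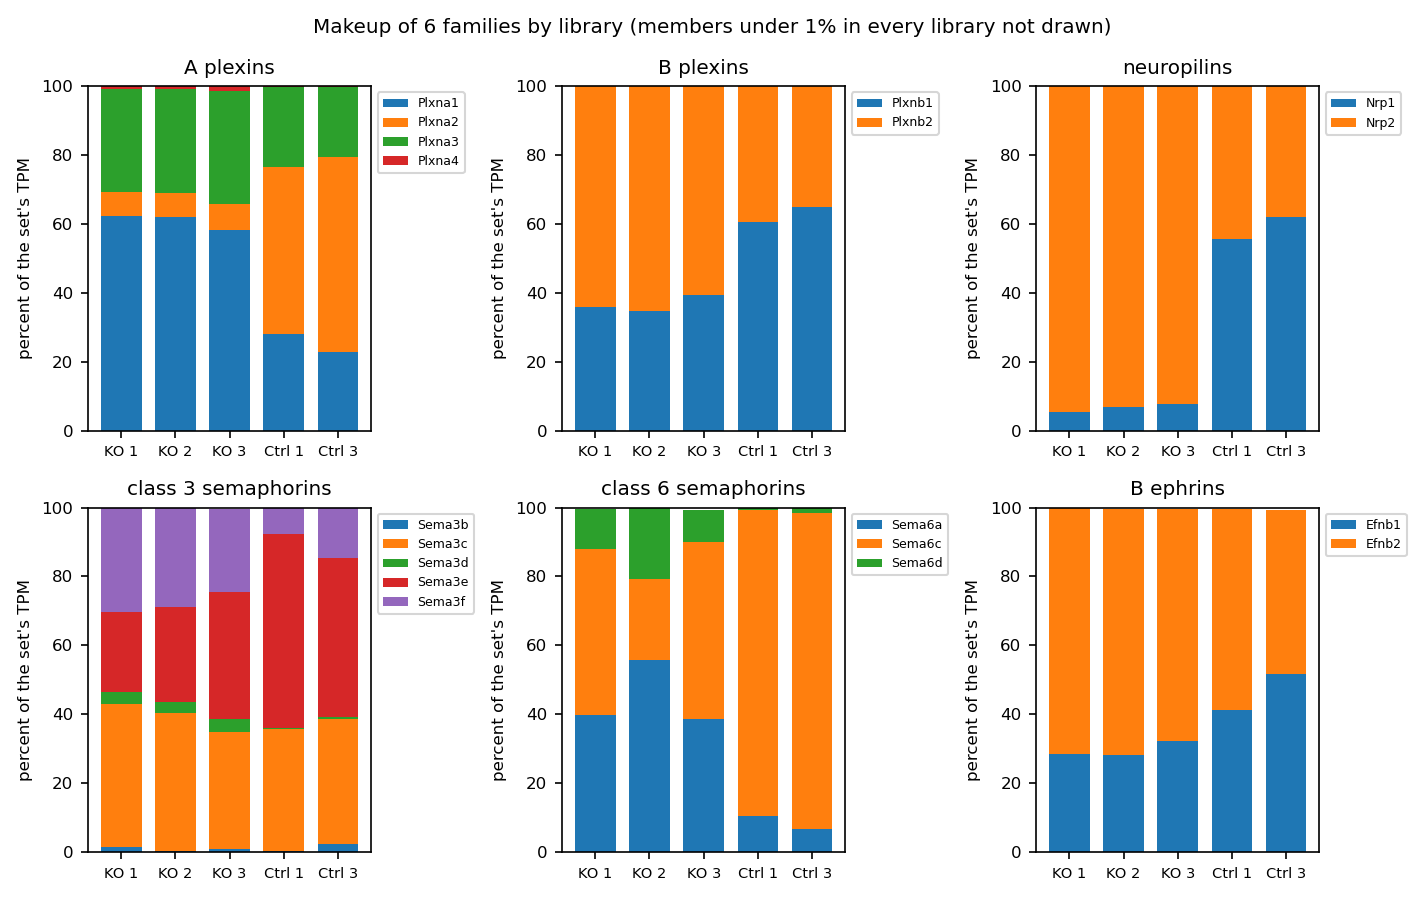
Stacked bars give each gene's percent of its family's summed TPM (y axis) in PRC1 i2KO libraries 1, 2 and 3 and Control libraries 1 and 3 (x axis) for 6 families; genes under 1% in every library are not drawn. Plxna2 shrinks to 6.79% to 7.503% of A plexins in PRC1 i2KO against 48.4% to 56.5% in Control, and Nrp2 makes up over 90% of neuropilins in each PRC1 i2KO library.

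Within PRC1 i2KO, library 3 was nearest to Control for 17 of the 26 members that passed (65.4%), library 1 for 6 and library 2 for 3. Over all 5310 genes that passed, library 3 was nearest for 58.5%. Examples are Ephb2, Sema6d, Sema6a, Sema4c and Nrp2 among those that rose and Sema3e, Plxnb1 and Ephb4 among those that fell. Sema3c was among the others, with its lowest value in library 3. Without library 3, 29 members passed, 14 higher and 15 lower.

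The ratio of estimated reads to TPM gives the transcript length that the authors' quantification assigned to a gene in a library, and a shift between groups means that other transcript lengths were weighted. Of 31 members with at least 50 reads and 5 TPM in every library, 2 had groups that did not overlap and differed by at least 0.2 on the log2 scale, which held for 8.37% of 9030 genes. Robo2, named like Sema4c after its values were seen, had a relative log2 length of 0.58, 0.47 and 0.57 in PRC1 i2KO 1, 2 and 3, against -0.03 and 0.03 in Control 1 and 3. Its implied length was 1.46 times that of Control in the PRC1 i2KO libraries. This bears on its direction, since Robo2 had a log2 fold change of 0.53 in counts and -0.20 on log2(TPM + 1), neither of which passed. Sema4c had -0.34, -0.28 and -0.22 in PRC1 i2KO, against -0.02 and 0.02 in Control, a ratio of 0.824. Sema6c varied within PRC1 i2KO (-0.75, 0.53 and 0.23), and Plxna2 differed by only -0.06.

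**Figure D4:**
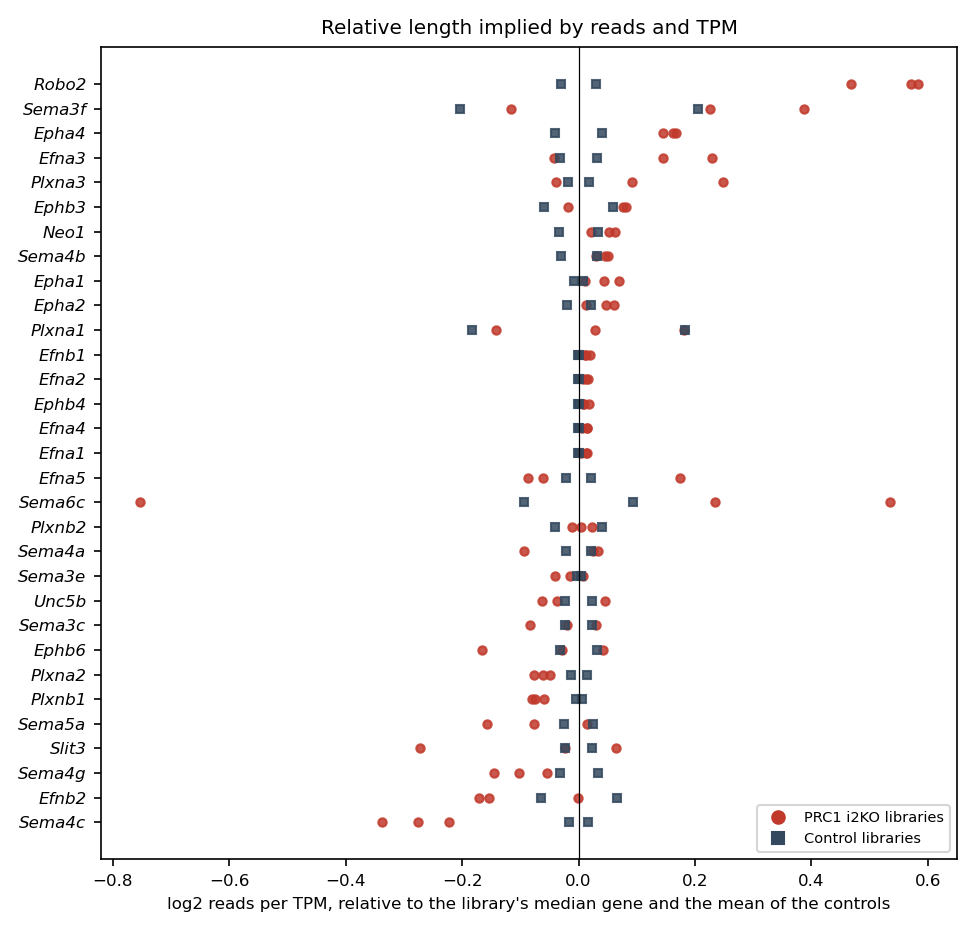
Reads per TPM on a log2 scale, relative to the median gene of the library and the mean of Control (x axis), for the 31 members with enough reads (y axis); red circles are PRC1 i2KO libraries and dark squares Control libraries. Robo2 lies at 0.47 to 0.58 in PRC1 i2KO and Sema4c at -0.34 to -0.22, while most other members lie near 0.

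With earlier results of these data known, 150 genes of the pathway around the ligands and receptors were listed by role. Of the 150, 140 were tested. Of these, 31 were higher and 44 lower (53.6% passed, beside 33.9% of all genes, 18.8% higher and 15.1% lower). Without PRC1 i2KO 2 the count was 49 in place of 75, and that of lower genes was 25 without the same library and 28 without Control 3. Among genes listed as modifying or binding ligands, 10 of 21 tested were higher and 6 lower. Flrt2, a surface ligand of Unc5 receptors, had 29.8, 32.7 and 34.4 CPM in PRC1 i2KO 1, 2 and 3, against 193 and 222 CPM in Control 1 and 3 (log2 fold change -2.68, SE 0.11, edgeR adjusted p = 5.33e-07). Lrig1, a brake on growth factor receptors and also a marker of the upper follicle, had 580.1, 587 and 444 CPM in PRC1 i2KO 1, 2 and 3, against 133 and 138 CPM in Control 1 and 3 (log2 fold change 1.99, SE 0.14, edgeR adjusted p = 9.45e-06). Pdgfc (log2 fold change 2.51) and Adamts1 (1.94), an extracellular protease gene, also rose, and the syndecan gene Sdc4 (-0.66) and Tnfrsf1a (-0.60) fell.

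Of 20 co-receptor genes, 4 were higher and 6 lower, beside 18.8% and 15.1% of all tested genes. Cdon, which binds neogenin and Hedgehog ligands, had 49.2, 56.7 and 61.2 CPM in PRC1 i2KO 1, 2 and 3, against 274 and 369 CPM in Control 1 and 3. It was lower in every PRC1 i2KO library (log2 fold change -2.53, SE 0.14, edgeR adjusted p = 3.21e-06). Met, a growth factor receptor that associates with B plexins, fell (log2 fold change -1.41), as did Lrp6 (-0.64), whereas Erbb2 (0.90), the adhesion gene Chl1 (1.36) and Mcam (1.99) rose.

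Of 33 tested genes listed as plexin effectors, 7 were higher and 9 lower, beside 18.8% and 15.1% of all tested genes. Dpysl4, of the collapsin response mediator family, had 5.08, 2.77 and 5.79 CPM in PRC1 i2KO 1, 2 and 3, against 0.369 and 0.0311 CPM in Control 1 and 3, few reads in Control (log2 fold change 5.17, SE 0.90, edgeR adjusted p = 0.00184). Dpysl4 met the filter on low counts through PRC1 i2KO alone, so a difference was built into its being tested. The small GTPase gene Rnd1 (1.75) and the adaptor gene Gipc1 (0.55) rose, and Arhgef12 (-0.95), whose protein binds B plexins, and Mical2 (-0.65) fell. Plxdc2 (-0.57), on the list but named for a plexin domain and not a known effector, also fell.

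Of 32 Eph effector genes, 5 were higher and 12 lower, beside 18.8% and 15.1% of all tested genes. Ngef, which encodes ephexin, an exchange factor that binds EphA receptors, had 1.04, 2.30 and 3.63 CPM in PRC1 i2KO 1, 2 and 3, against 30.0 and 47.6 CPM in Control 1 and 3. Every PRC1 i2KO library was far below both Control libraries (log2 fold change -3.99, SE 0.41, edgeR adjusted p = 0.000352). The exchange factor genes Vav3 (2.21) and Kalrn (1.31) and the adaptor gene Grb7 (1.00) rose, and the ephrin-binding scaffold genes Grip1 (-1.33) and Sdcbp (-0.76) fell.

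Of 34 effector genes of Dcc and Robo, 5 were higher and 11 lower, beside 18.8% and 15.1% of all tested genes. Srgap1, a GTPase-activating protein that binds Robo, had 64.5, 57.4 and 63.7 CPM in PRC1 i2KO 1, 2 and 3, against 15.8 and 9.89 CPM in Control 1 and 3 (log2 fold change 2.32, SE 0.20, edgeR adjusted p = 2.77e-05). Dapk1 (1.04), a death kinase linked to Unc5 receptors, and the kinase gene Pak3 (1.96) rose. The actin regulator genes Enah (-1.48) and Ablim3 (-1.54) and the Robo-linked gene Cables1 (-1.50) fell.

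**Figure D5:**
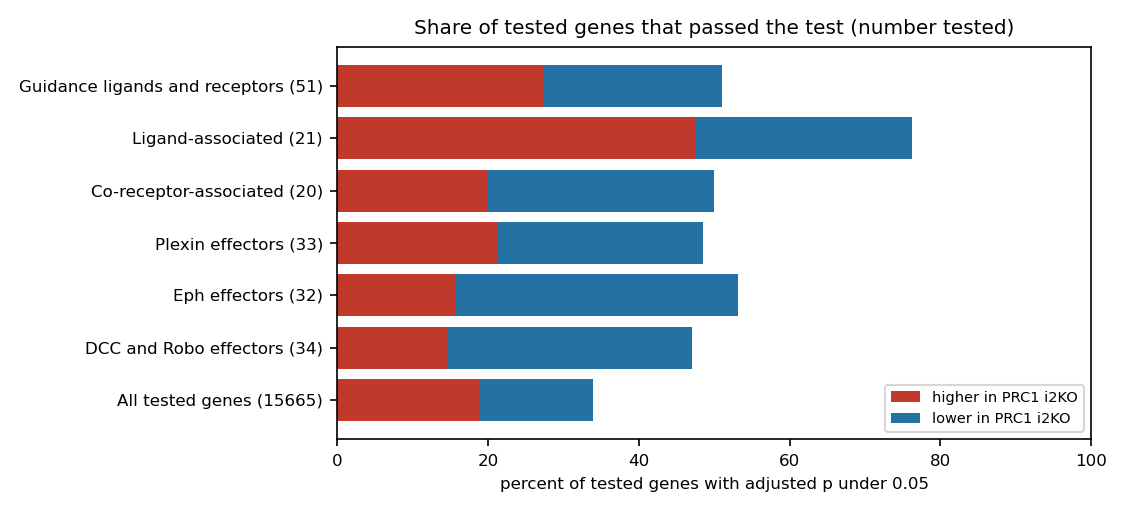
Percent of tested genes with an adjusted p under 0.05 (x axis), split into higher in PRC1 i2KO (red) and lower (blue), for the guidance ligands and receptors, the 5 lists of other pathway genes and all 15665 tested genes, with the number tested in brackets. The guidance ligands and receptors stand at 51.0% and all tested genes at 33.9%; the ligand-associated list is the one with more higher than lower genes among the 5.

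Markers of other cells that use guidance genes were read beside these results. Their counts stand beside 18.8% of all tested genes higher and 15.1% lower. Of 16 neuron and Schwann cell markers, 7 were tested and 3 were higher, and Elavl3, Elavl4, Snap25, Rbfox3, Nefl and Cdh19 had no read in any library. The list summed to 42.6 to 56.3 CPM in PRC1 i2KO and 30.9 to 33.4 CPM in Control, with Mbp, which is not exclusive to these cells, giving most of it. Sox10 had 1.55, 2.63 and 3.16 CPM in PRC1 i2KO 1, 2 and 3, against 0.738 and 0.498 CPM in Control 1 and 3, and Ngfr, also expressed in hair follicle epithelium, had 7.77, 12.3 and 18.5 CPM in PRC1 i2KO 1, 2 and 3, against 4.18 and 2.55 CPM in Control 1 and 3. Immune markers summed to 113.4 to 156.8 CPM in PRC1 i2KO and 38.4 to 47.5 CPM in Control. Muscle and pericyte markers summed to 251.1 to 404.5 CPM in PRC1 i2KO and 753.5 to 820.1 CPM in Control, but Cspg4, the 1 lower gene of 7 tested, made up most of that sum, 2 others were higher, and the median log2 fold change was 1.70. Fibroblast and dermal papilla markers summed to 185.1 to 242.9 CPM in PRC1 i2KO and 296.7 to 339.2 CPM in Control, with 4 of 6 tested lower and 1 higher. Melanocyte markers summed to 70.9 to 75.8 CPM in PRC1 i2KO and 156.9 to 169.6 CPM in Control, mostly Mitf, which was lower, while 2 of the 5 tested were higher and the median log2 fold change of the list was above 0. Merkel cell markers stayed under 8 CPM in sum, with Isl1, Krt20 and Sox2 at 0. The part of these cells in the guidance values was not tested.

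Exons of 19 members overlap those of another gene in the GENCODE M21 annotation. Among members that passed, these are Plxna1, Plxnb1, Sema4c, Efna4, Ephb4 and Unc5c, each with a gene on the opposite strand, and Ntn3, which also shares 89 bases with Tbc1d24 on its own strand. Whether the counting used strand is not given in the sources used here, so their values are less certain. The partner of Unc5c had no read, and the partner of Plxnb1 had 167 estimated reads over all libraries beside 45388 for Plxnb1.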

How the data were processed

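RNA of hair follicle stem cells was sequenced in 3 PRC1 i2KO and 2 Control libraries. The authors deposited a table of 55357 genes with expected counts and TPM for each library, and the fractional values in the count columns are read as RSEM estimates. STAR 2.7.9a, RSEM 1.3.3, DESeq2 1.38.2 and build mm39 are named in the submitters' processing notes, without roles; annotation and strandedness are not given. The deposited TPM values are per transcript length and keep no depth. Expected counts share reads among close paralogs, and 6 of the 64 members with reads had a fractional estimate.

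After rounding, the expected counts went into edgeR 4.0.16 (R 4.3.3): filterByExpr (minimum count 10), TMM factors (0.983 to 1.02), a robust quasi-likelihood F test with genotype as the only term, and Benjamini-Hochberg adjustment over 15665 genes at 0.05. CPM uses the same scaling, and the SE is the log2 fold change divided by the square root of F. Libraries of a group differed beyond sampling noise (10.3 to 42.6 as chi-square over degrees of freedom), so none was merged. The script was checked on simulated counts. Control 3 is numbered by its title; its description carries another number.

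Members, pathway lists and marker lists were chosen with earlier results of these data known. Every library is given for members that passed with a 2-fold change and for the member of each family with the highest TPM; of each pathway list up to 3 genes in each direction with the smallest adjusted p are named; values of further genes were added after they were seen. Alternatives were library totals without TMM, DESeq2 1.42.0, no filter, a mean of at least 1 CPM, limma 3.58.1 on log2(TPM + 1) and log2(TPM + 0.1), leaving out each library, and a replicate block. Limma used genes with a mean of at least 0.5 TPM, or all genes. Floors and intervals cover counting error only: 3 reads over a group correspond to 0.0601 CPM in PRC1 i2KO and 0.0745 CPM in Control.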

Additional observations from a re-analysis of the deposited data

How the results depend on the processing

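Of the 26 members that passed, 14 kept their call under all 13 alternatives, and Unc5c kept it under the 11 that gave it a value, since its TPM was under the filter of the other 2. None of the 26 changed sign. Sema3d and Ntn4 lost the call with limma on TPM without a filter; Sema5a, Plxna1, Plxnb2 and Robo1 lost it in all 3 TPM fits; Sema4b, Sema6c and Ntn3 lost it in those fits and when single libraries were left out, and Efna4 and Ephb4 with limma on TPM without a filter and when single libraries were left out. The cause of these losses was not tested.

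The median log2 fold change of all genes was -0.01 in the count fit, -0.137 on log2(TPM + 1), -0.156 on log2(TPM + 0.1) and -0.048 on log2(TPM + 1) without a filter. In that order, genes called higher numbered 1696, 1744 and 1410 over all genes (2939 in the count fit), 9, 9 and 7 over the members (14) and 16, 16 and 13 over the pathway lists (31). Without a filter the TPM fit called 2991 genes in all, 15 members, 5 members higher by 2-fold or more, and 42 pathway genes, 29 of them lower. Members lower by 2-fold or more numbered 5 on both filtered TPM scales, against 8.

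Leaving out each library in turn gave 3322 to 5856 genes called, 1963 to 3099 higher and 1359 to 2757 lower. Over the members it gave 22 to 29 called, 13 to 15 higher and 8 to 15 lower; at 2-fold or more it gave 13 to 15, 7 to 8 higher and 6 to 7 lower. Pathway genes called ranged from 49 to 77, with 22 to 33 higher and 25 to 44 lower.

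The groups share 2 replicate numbers, and same-numbered libraries correlated weakly in their deviations (r = 0.10 and 0.17). PRC1 i2KO 2 and Control 1, which differ in number, gave 0.08. With 2 Control libraries their deviations mirror each other, so these values cannot decide pairing. The numbers are not taken as pairs. With a replicate block 4421 genes, 24 members and 60 pathway genes passed. Sema4b (log2 fold change 0.41, adjusted p = 0.0505) and Ntn3 (-2.07, adjusted p = 0.0717) lost their calls.

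Members that did not pass changed sign in places. Leaving out each library in turn gave log2 fold changes of -0.13 to 0.97 for Sema3f, -0.37 to 0.41 for Plxnd1, -0.046 to 0.24 for Efna1, -0.51 to 0.20 for Efna2, -0.38 to 0.14 for Epha1, -0.24 to 0.74 for Epha2, -0.16 to 0.18 for Epha4, -0.85 to 0.74 for Ntn1, -0.19 to 0.18 for Unc5b and -0.59 to 0.012 for Slit3. With the block it was 0.080 for Plxnd1 and 0.043 for Unc5b, and without TMM it was 0.0098 for Unc5b. In the order of the TPM fits above it was -0.068, -0.069 and -0.068 for Efna1, -0.29, -0.30 and -0.29 for Epha4, and -0.20, -0.20 and -0.20 for Robo2. The 13 members with reads that could not be tested had too few for a comparison at this depth.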

Other observations

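Values that enter no comparison above are those of members with too few reads. Unc5a had 32 reads in PRC1 i2KO and 3 in Control, a ratio of summed reads scaled to depth of 8.61 with an exact 95% binomial interval of 2.69 to 43.9, and 26 of the 32 reads came from PRC1 i2KO 3. Sema4f had 12 reads in PRC1 i2KO and 1 in Control (ratio 9.68, interval 1.43 to 413.9), and Sema7a had 14 and 2 (ratio 5.65, interval 1.297 to 51.2). Epha7 had 3 reads in PRC1 i2KO and 9 in Control (ratio 0.269, interval 0.0468 to 1.08). The intervals cover counting error only and compare these libraries, not the conditions. By the size of the log2 fold change among 15665 genes, Unc5c ranked 103, Ephb2 294, Nrp2 389, Sema6d 691, Plxna2 709 and Sema6a 1021. Unc5c, Ephb2 and Sema6d met the filter on low counts through a single group, so a difference was built into their being ranked.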
